A study of Mus musculus with 12 samples.

Results

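The genes described here are 8 receptors and receptor partners that macrophages carry, some of which other cells carry too. They are the Fc receptor genes Fcgr1, Fcgr2b and Fcgr3, the shared signalling chain Fcer1g, and the scavenger receptor genes Msr1, Mrc1, Cd68 and Cd36. They were taken by name, and every probe set of the array annotated to one of these symbols was included, which gave 8 of 12393 named genes and 16 of the 22626 probe sets tested. Fcgr2b and Msr1 had 4 probe sets each, Cd36 had 3, and the other genes had 1 each. Fcgr2b, Fcgr3 and Fcer1g lie on mouse chromosome 1, Mrc1 on chromosome 2, Fcgr1 on 3, Cd36 on 5, Msr1 on 8 and Cd68 on 11. RNA came from murine bone marrow cells sorted as Sca-1+, Lin- and GFP+, and it was measured on 12 arrays, 3 for each of 4 groups. The cells carried a retroviral vector with GFP alone (GFP control), the NUP98-HOXD13 fusion (ND13), the NUP98-HOXA10 fusion (NA10), or ND13(N51S), in which the homeodomain of ND13 holds the N51S substitution. All 4 groups shared the rest of the treatment. Adult (C57Bl/6Ly-Pep3b×C3H/HeJ) F1 donor mice received 5-fluorouracil at 150 mg/kg 4 days before harvest, the marrow was held for 48 hours in hIL-6, mIL-3 and mSCF, it then lay on virus producer cells over 2 days, and it was kept for 24 hours more before the sort. The fusions were driven by a retroviral vector in whichever cells took it up, so the sorted cells are a mixture and not a clone. The lineage antibodies named for the sort were against B220, CD4, CD5, CD8, Gr-1 and Ter-119, with none against the macrophage antigens that Itgam and Adgre1 encode. An antibody to CD16 and CD32, the products of Fcgr3 and Fcgr2b, was used on the cells before sorting.

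Fc receptors bind the constant part of antibodies and let phagocytes take up coated particles. Fcgr1 encodes the high-affinity receptor for IgG (CD64) and Fcgr3 a low-affinity one (CD16), and both depend on the common gamma chain, encoded by Fcer1g, which carries an activating ITAM motif and also serves the IgE receptor of mast cells. Fcgr2b encodes the inhibitory IgG receptor (CD32B), which signals through an ITIM motif and is also found on B cells and mast cells. Scavenger receptors take up modified lipoproteins, dying cells and microbial sugars. Msr1 encodes the class A scavenger receptor, Mrc1 the mannose receptor (CD206), and Cd36 a class B receptor for fatty acids and oxidised lipoproteins that platelets carry too. Cd68 encodes macrosialin, a glycoprotein of late endosomes and lysosomes in mononuclear phagocytes.

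The 8 genes did not move as a block. With ND13, Fcer1g averaged 1225 against 460.9 in the GFP control and Cd68 averaged 1090 against 462.9. With ND13(N51S), Mrc1 averaged 718 against 113.2 and Fcgr3 averaged 640.2 against 223.6. Both of these ND13(N51S) means lean on replicate 1, at 1419 for Mrc1 and 993.5 for Fcgr3. With NA10, the probe set 1435477_s_at of the inhibitory receptor gene Fcgr2b averaged 877.6 against 1459, while Mrc1 and Cd68 averaged 269.2 and 785.8, above every control array. That Fcgr2b control mean leans on GFP control replicate 1, at 2032 against 1186 and 1160 on the others. On the Fcgr2b probe set 1435476_a_at NA10 averaged 967.2 against 1260, with overlapping groups. Fcgr1 overlapped between all groups. None of the 16 probe sets passed the adjusted threshold in the fit of all 4 groups without a block, and Fcer1g passed it with ND13 when the replicate number was used as a block.

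Promoter sequence is shown for the 4 genes on which the comparisons below turn, as the 250 bases before the RefSeq start site in GRCm38.p6, written from 5′ to 3′ on the gene's own strand. Capitals mark matches to GAGGAA on either strand, the core letters of the binding site of PU.1, a transcription factor of myeloid cells. The motifs were chosen with the sequences in view.
Fcer1g, chr1:171234350-171234599, strand minus: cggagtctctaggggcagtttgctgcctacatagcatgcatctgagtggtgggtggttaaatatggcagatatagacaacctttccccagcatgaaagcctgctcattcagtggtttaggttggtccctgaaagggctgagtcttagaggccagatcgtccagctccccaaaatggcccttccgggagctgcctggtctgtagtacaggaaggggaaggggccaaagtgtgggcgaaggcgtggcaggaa
Fcgr2b, chr1:170976072-170976321, strand minus: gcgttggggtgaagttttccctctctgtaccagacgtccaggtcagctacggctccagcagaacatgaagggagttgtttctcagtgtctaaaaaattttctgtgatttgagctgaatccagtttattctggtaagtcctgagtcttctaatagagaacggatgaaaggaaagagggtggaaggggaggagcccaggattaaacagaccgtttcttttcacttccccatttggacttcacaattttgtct
Mrc1, chr2:14229164-14229413, strand plus: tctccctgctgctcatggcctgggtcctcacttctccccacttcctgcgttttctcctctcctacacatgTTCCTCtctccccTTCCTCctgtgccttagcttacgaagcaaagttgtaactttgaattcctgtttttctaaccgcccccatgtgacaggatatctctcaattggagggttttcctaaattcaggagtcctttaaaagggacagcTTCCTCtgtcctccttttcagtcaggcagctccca
Cd68, chr11:69666171-69666420, strand minus: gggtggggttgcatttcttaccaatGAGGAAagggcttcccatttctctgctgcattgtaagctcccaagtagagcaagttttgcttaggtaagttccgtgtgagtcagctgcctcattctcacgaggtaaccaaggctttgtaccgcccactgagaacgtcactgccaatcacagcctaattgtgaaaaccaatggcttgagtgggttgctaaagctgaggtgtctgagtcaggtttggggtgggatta
GAGGAA or its reverse complement TTCCTC lay in the window of 4 of the 7 genes with one, namely Mrc1, Cd68, Fcgr1 and Fcgr3, and in 25.9% of all 27025 genes with a window of the same length. Mrc1 held 3 matches, the nearest 30 bases before the start, and Cd68 held 1 at 220 bases. The letters TTCNNNGAA of a STAT site, which overlap no GAGGAA match here, lay in 1 of the 7 genes (Fcgr1) and in 8.13% of all genes, and CAATAAA, a site of Abd-B-type Hox proteins, on either strand in 0 of the 7 and in 4.89% of all genes.

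Values are MAS5 signals on a linear scale, in which each array was scaled to the same trimmed mean, and means are given ± SD over the 3 arrays of a group. A probe set was above background where its signal exceeded the 95th percentile of the bacterial control probe sets on that array, a level between 28.5 and 69.8. Of the 16 probe sets, 10 were above background on all 12 arrays, and the other 6 were probe sets of Msr1 and Cd36. GFP control replicate 1 was kept under its label although its experiment record names another cell fraction, the GFP- cells of the ND13(N51S) culture. On ND13(N51S) replicate 2 the 3′-to-5′ ratio was 48.9 for Gapdh and 9.09 for actin, against at most 2.71 and 2.38 on the other arrays. Values without these 2 arrays are given beside the results that they move. Csf1r, Adgre1, Cd14, Lyz2 and Tyrobp, which macrophages express, were above background on all 12 arrays, and Itgam was on 10. In sorted bulk cells, fewer cells of a type and less RNA per cell cannot be told apart.

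**Figure D1:**
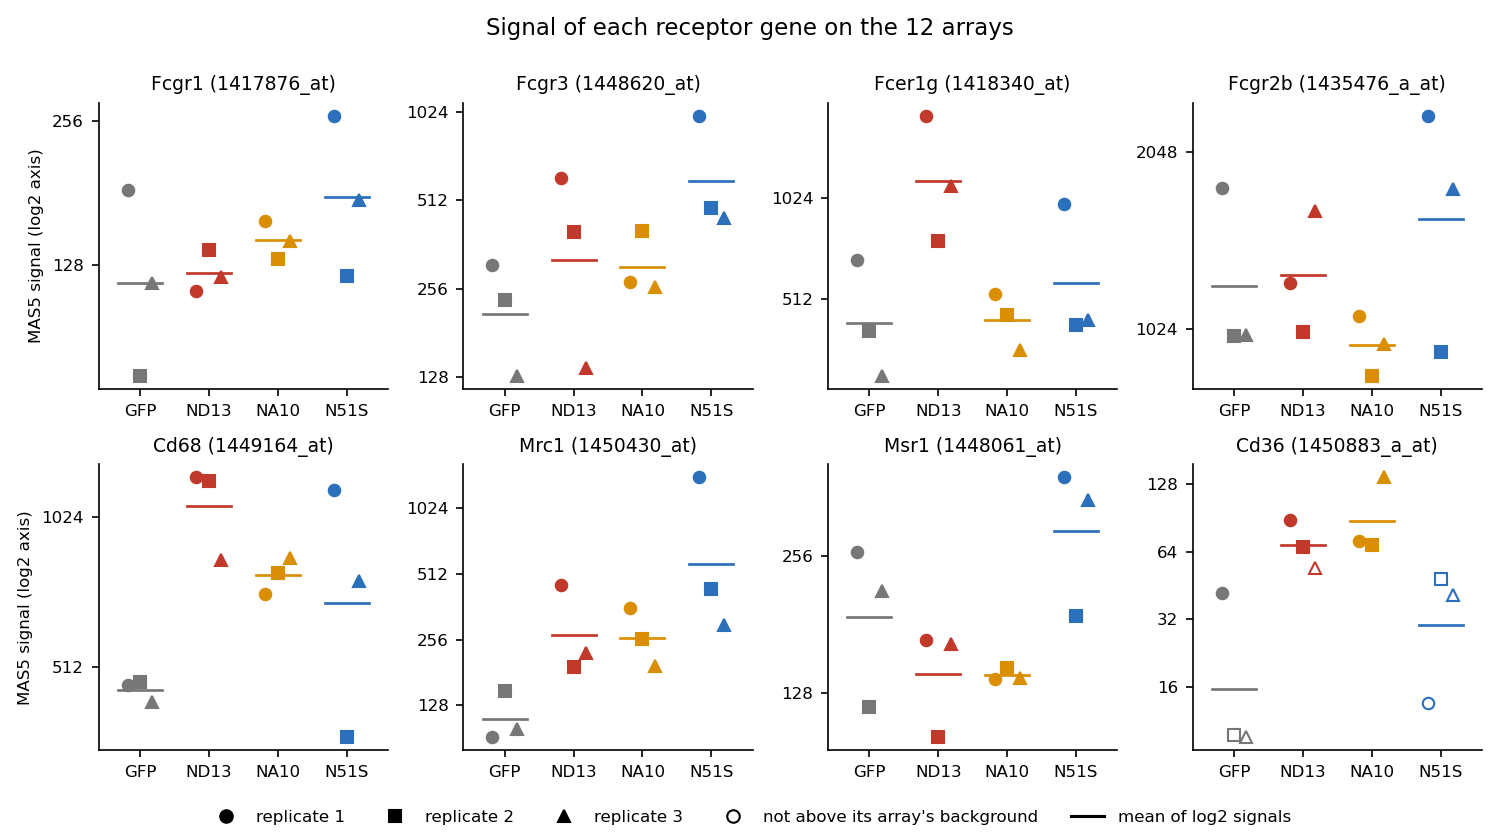
MAS5 signal on a log2 axis for 1 probe set of each of the 8 genes, by group (GFP control, ND13, NA10 and ND13(N51S), here N51S), with 1 mark for each of the 3 arrays and a line at the mean of the log2 signals. Open marks are not above the background of their array. For Fcer1g the lowest ND13 array (764.5) lies above the highest control array (669.3), and for Cd68 all 6 ND13 and NA10 arrays lie above the control arrays.

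Fcgr1, the high-affinity IgG receptor gene, had signals of 183.6, 75.2 and 117.3 on the GFP control arrays in replicate order. ND13 gave 113.2, 137.9 and 121, NA10 gave 158.6, 131.9 and 143.9, and ND13(N51S) gave 262.3, 121.6 and 175.2. The groups overlapped in every comparison, and the order from ND13(N51S) through NA10 and ND13 to the control held no pair of neighbours that was apart. Against the control, ND13 gave a log2 fold change of 0.07 (95% confidence interval −0.70 to 0.85), NA10 one of 0.30 (−0.48 to 1.07) and ND13(N51S) one of 0.60 (−0.18 to 1.37). Within replicate numbers ND13(N51S) lay above the control by 0.52, 0.69 and 0.58, and without the 2 arrays in doubt its difference was 1.19, with an adjusted p of 0.623 in limma.

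Fcgr3, the low-affinity activating receptor gene, gave 308.2, 233.6 and 128.9 in the GFP control. With ND13(N51S) the signals were 993.5, 482.8 and 444.4, all above the control. The log2 fold change was 1.51 ± 0.50 (SE; limma, adjusted p = 0.543), and same-numbered arrays differed by 1.69, 1.05 and 1.79. With ND13 the arrays spread from 137 to 607.8 and with NA10 from 259.5 to 401, and both groups overlapped with the control. Their log2 fold changes were 0.61 ± 0.50 and 0.53 ± 0.50. All 3 NA10 arrays lay below the ND13(N51S) arrays, with a log2 difference of −0.98 ± 0.50 and an adjusted p of 0.611 in limma. Without ND13(N51S) replicate 1, the array with the highest Fcgr3 signal, the log2 fold change of ND13(N51S) against the control was 1.14, with an unadjusted p of 0.0534 in limma.

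Fcer1g, the gamma chain through which both activating receptors signal, was highest with ND13. Its signals were 669.3, 410.8 and 302.7 in the GFP control and 1801, 764.5 and 1110 with ND13, and these groups did not overlap. NA10 gave 530.5, 460.6 and 361.8, inside the range of the control, and ND13(N51S) gave 986.6, 429.5 and 443.5, which overlapped with all other groups. The log2 fold change of ND13 against the control was 1.40 ± 0.39 with an adjusted p of 0.399 in limma, and with the replicate number as a block Fcer1g rose with an adjusted p of 0.0339. Same-numbered arrays differed by 1.43, 0.90 and 1.88. Without GFP control replicate 1 and ND13(N51S) replicate 2 the difference was 1.71, with an adjusted p of 0.245 in limma. ND13 also lay above NA10 in all 3 pairs, by 1.76, 0.73 and 1.62, a log2 difference of 1.37 ± 0.39 with an adjusted p of 0.971 in limma and 0.125 with the block. Against ND13(N51S) the difference was 1.01 ± 0.39 with overlapping groups and an adjusted p of 0.573 in limma, and without ND13(N51S) replicate 2 it was 0.80 with an unadjusted p of 0.0809. NA10 and the control differed by 0.03, with a 95% confidence interval of −0.82 to 0.87.

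Fcgr2b, the inhibitory receptor gene, was measured by 4 probe sets, and all 4 were above background on all 12 arrays. By the array maker's naming, probes of sets that end in _s_at or _x_at can also match other transcripts, so those values are less certain. On 1435477_s_at the signals were 2032, 1186 and 1160 in the GFP control and 835.9, 910.5 and 886.5 with NA10, and the groups did not overlap. The log2 fold change was −0.68 ± 0.27 with an adjusted p of 0.9999 in limma. Same-numbered arrays differed by −1.28, −0.38 and −0.39, so replicate 1 gave the widest gap, and GFP control replicate 1 was the highest of its group. On 1451941_a_at the control gave 1089, 577.7 and 480.6 and NA10 gave 381.3, 360.1 and 306.4, again without overlap, with a log2 fold change of −0.95 ± 0.49 and an unadjusted p of 0.0719 in limma. The other 2 probe sets also had a lower mean with NA10, by −0.33 ± 0.33 on 1435476_a_at and −0.50 ± 0.47 on 1455332_x_at, and there the groups overlapped. Without GFP control replicate 1 none of the 4 probe sets met an unadjusted p of 0.05 and a 1.5-fold difference for NA10 in limma, and without both arrays in doubt 1451941_a_at did, at −0.60 with an unadjusted p of 0.0452.

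With ND13 the 4 Fcgr2b probe sets did not share a direction. Their log2 fold changes against the control ran from −0.39 ± 0.49 on 1451941_a_at to 0.06 ± 0.33 on 1435476_a_at. With ND13(N51S) they ran from −0.28 ± 0.49 on 1451941_a_at to 0.38 ± 0.33 on 1435476_a_at. ND13(N51S) replicate 1 was the highest array on all 4 probe sets, while ND13(N51S) replicate 2 was the lowest of its group on all 4. On that array the ratio of 1451941_a_at to 1435477_s_at was 0.185, against 0.346 to 0.536 on the other 11 arrays. The ratio of 1455332_x_at to 1435476_a_at was 0.233 there and 0.278 to 0.480 elsewhere. NA10 lay below ND13(N51S) on 1435477_s_at by −0.91 ± 0.27 (limma, adjusted p = 0.390), without overlap and in all 3 pairs. The 12 arrays gave Pearson correlations of 0.814 to 0.934 between Fcgr2b probe sets, as a description of probe sets that read 1 gene on shared arrays.

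**Figure D2:**
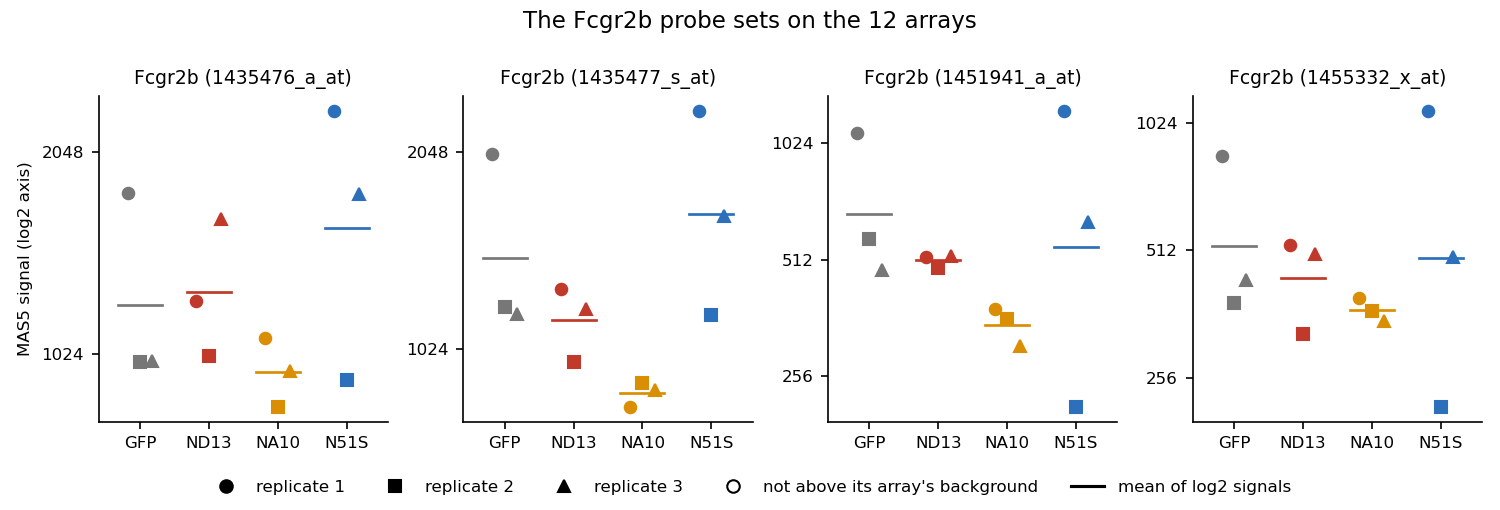
MAS5 signal on a log2 axis for the 4 Fcgr2b probe sets, by group (GFP control, ND13, NA10 and ND13(N51S), here N51S), with 1 mark for each of the 3 arrays and a line at the mean of the log2 signals. NA10 arrays lie below all control arrays on 1435477_s_at and 1451941_a_at, and ND13(N51S) spans the widest range, from 213.1 to 1242 on 1451941_a_at.

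Cd68, the lysosomal macrophage marker, was the tightest of these genes in the GFP control, with signals of 471.7, 479.3 and 437.7 (462.9 ± 22.2). All ND13 arrays, at 1227, 1205 and 837, and all NA10 arrays, at 718.2, 791.7 and 847.6, lay above them. ND13(N51S) gave 1158, 371.3 and 762.1, so that replicate 2 lay below the control and the other 2 arrays above it. ND13 gave a log2 fold change of 1.21 ± 0.33 (limma, adjusted p = 0.362), NA10 one of 0.76 ± 0.33 (limma, adjusted p = 0.9999) and ND13(N51S) one of 0.58 ± 0.33 (limma, adjusted p = 0.701). Same-numbered arrays differed from the control by 1.38, 1.33 and 0.94 with ND13 and by 0.61, 0.72 and 0.95 with NA10. Without ND13(N51S) replicate 2 the adjusted p of ND13 was 0.0390 in limma at the same fold change, since that array enters only the shared spread, and the difference of ND13(N51S) from the control was 1.04 without both arrays in doubt. Without GFP control replicate 1 the difference of NA10 was 0.78, with an unadjusted p of 0.0647 in limma. ND13 and NA10 differed by 0.45 ± 0.33 with overlapping groups.

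Mrc1, the mannose receptor gene, was lowest in the GFP control, with signals of 91.2, 148.5 and 99.9. ND13 gave 453.6, 190.8 and 222.5, NA10 gave 356.7, 257.5 and 193.4, and ND13(N51S) gave 1419, 436.1 and 299.1. All 9 arrays with a fusion lay above all 3 control arrays, and the groups with a fusion overlapped with each other. ND13(N51S) differed from the control by a log2 fold change of 2.37 ± 0.50 (limma, adjusted p = 0.267), ND13 by 1.28 ± 0.50 (limma, adjusted p = 0.755) and NA10 by 1.24 ± 0.50 (limma, adjusted p = 0.9999). The replicate 1 arrays gave the widest differences, of 3.96, 2.31 and 1.97, and the other replicate numbers gave 1.55 and 1.58 with ND13(N51S), 0.36 and 1.16 with ND13, and 0.79 and 0.95 with NA10. ND13 lay below ND13(N51S) by −1.09 ± 0.50 and NA10 by −1.13 ± 0.50. Without ND13(N51S) replicate 1 these differences were −0.43 and −0.47, with unadjusted p of 0.311 and 0.272 in limma. Without GFP control replicate 1 the differences of ND13 and NA10 from the control were 1.14 and 1.10, with unadjusted p of 0.0719 and 0.0808 in limma.

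Msr1, the class A scavenger receptor gene, was measured by 4 probe sets that did not give 1 pattern, with correlations between −0.004 and 0.658 over the 12 arrays. The brightest, 1448061_at, gave 261.4, 119.2 and 214 in the GFP control. ND13 gave 167.4, 101.9 and 163.9 there, NA10 gave 137.4, 144.8 and 138, and ND13(N51S) gave 382.5, 188.8 and 341.2. All ND13 and NA10 arrays lay below the ND13(N51S) arrays, and the control overlapped with every group. The difference from ND13(N51S) was −1.05 ± 0.35 for ND13 (limma, adjusted p = 0.502) and −1.06 ± 0.35 for NA10 (limma, adjusted p = 0.441), and within replicate numbers it was −1.19, −0.89 and −1.06 for ND13 and −1.48, −0.38 and −1.31 for NA10. Without both arrays in doubt the differences were −1.36 and −1.37, with adjusted p of 0.326 and 0.310 in limma. On 1422062_at, which was above background on 11 arrays, ND13(N51S) gave 596.3, 188.6 and 183.7 against 194.3, 47.8 and 146.2 in the control, with overlap. The probe sets 1425434_a_at and 1425435_at were above background on 10 and 3 arrays. For 1425435_at no control array was above background, and ND13 was above it on 2 of 3 arrays, on replicate 3 only at 69.94 against a background of 69.81. The groups overlapped, with 27.3 on ND13 replicate 1 against up to 29.25 in the control. With that dim array as measured, the mean with ND13 was 1.37-fold the control's background level. The log2 fold change of the measured signals was 1.64 ± 1.05 (limma, adjusted p = 0.991).

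Cd36, the class B receptor gene, was near background throughout. The brightest of its 3 probe sets, 1450883_a_at, gave 41.8, 9.71 and 9.48 in the GFP control, of which only the first was above background. ND13 gave 88.9, 67.1 and 54.4, above background on 2 arrays, NA10 gave 71.8, 68.9 and 138 with all 3 above background, and ND13(N51S) gave 13.5, 48.5 and 41.2 with none above. All 6 ND13 and NA10 arrays lay above all 6 control and ND13(N51S) arrays. The log2 fold change against the GFP control was 2.13 ± 0.70 with ND13 (limma, adjusted p = 0.567) and 2.49 ± 0.70 with NA10 (limma, adjusted p = 0.713), and it leans on control signals that were below background on 2 of the 3 arrays. Without both arrays in doubt, which leaves only those 2, the values were 2.84 and 3.20. Against the background level of the ND13(N51S) arrays the mean with NA10 was at least 1.76-fold. With ND13 it was 1.38-fold, its array below background entering as measured. For the measured signals against ND13(N51S), limma gave adjusted p of 0.706 with ND13 and 0.568 with NA10. The probe set 1423166_at was above background on 4 arrays, 2 with ND13 and 2 with NA10. Its mean with NA10, the array below background entering as measured, was 1.68-fold the control's background level. The measured signals there gave an adjusted p of 0.9999 in limma. The probe set 1450884_at was above background on 1 array, of NA10.

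Counts over the 16 probe sets were read beside those of all probe sets. With an adjusted p of 0.05 and a 1.5-fold difference in limma, 0 of the 16 were called with ND13 against the GFP control, where 0.0884% of all probe sets were called, and 1, Fcer1g, was called with the replicate block, where 0.296% were. Without ND13(N51S) replicate 2 it was 1, Cd68, against 0.168%. In the other comparisons 0 of 16 were called with or without the block. There the background was 0.0133% (0.0398% with the block) with NA10 and 0% (0.0265%) with ND13(N51S) against the GFP control. It was 0.0133% (0.0796%) for ND13 and 0.00884% (0.0442%) for NA10 against ND13(N51S), 0.0177% (0.0398%) for ND13 against NA10, and 0.0354% (0.102%) for both fusions against both controls. With ND13(N51S) against the control 0 of all probe sets were called by limma without the block, and 1732 had an unadjusted p below 0.05. The smallest adjusted p of any member without the block was 0.267, for Mrc1 with ND13(N51S) against the control.

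At the thresholds of the study's methods, an unadjusted p of 0.05 and a 1.5-fold difference, more members stood apart. With ND13 against the GFP control, 4 of 16 were higher (Fcer1g, Cd68, Mrc1 and Cd36 1450883_a_at) and 0 lower, where 3.43% of all probe sets were higher and 1.5% lower. With NA10, 3 were higher (Cd68, Mrc1 and Cd36 1450883_a_at) and 1 was lower (Fcgr2b 1435477_s_at), against 2.51% and 1.52%. With ND13(N51S), 2 were higher (Mrc1 and Fcgr3) and 0 lower, against 4.37% and 2.48%. With the replicate block the count with ND13(N51S) was 4 higher, the Msr1 probe sets 1422062_at and 1448061_at being added, against 5.13%, and that with NA10 was 2 lower, Fcgr2b 1451941_a_at being added, against 1.88%. The median log2 fold change of the 16 was 0.34, 0.34 and 0.52 in these comparisons, and that of all probe sets was 0, −0.01 and 0.07. These comparisons share the GFP control arrays, so their values are side by side and not independent. By overlap alone, 4, 4 and 2 of the 16 lay wholly above the control and 0, 2 and 0 wholly below it, where 6.84%, 5.6% and 8.5% of all probe sets lay above and 5.37%, 5.18% and 3.45% below. Those above were the probe sets named as higher without the block, with Cd36 1423166_at added for NA10. The 2 below were Fcgr2b 1435477_s_at and 1451941_a_at. In the control, Cd36 1423166_at was above background on no array and Cd36 1450883_a_at on 1.

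**Figure D3:**
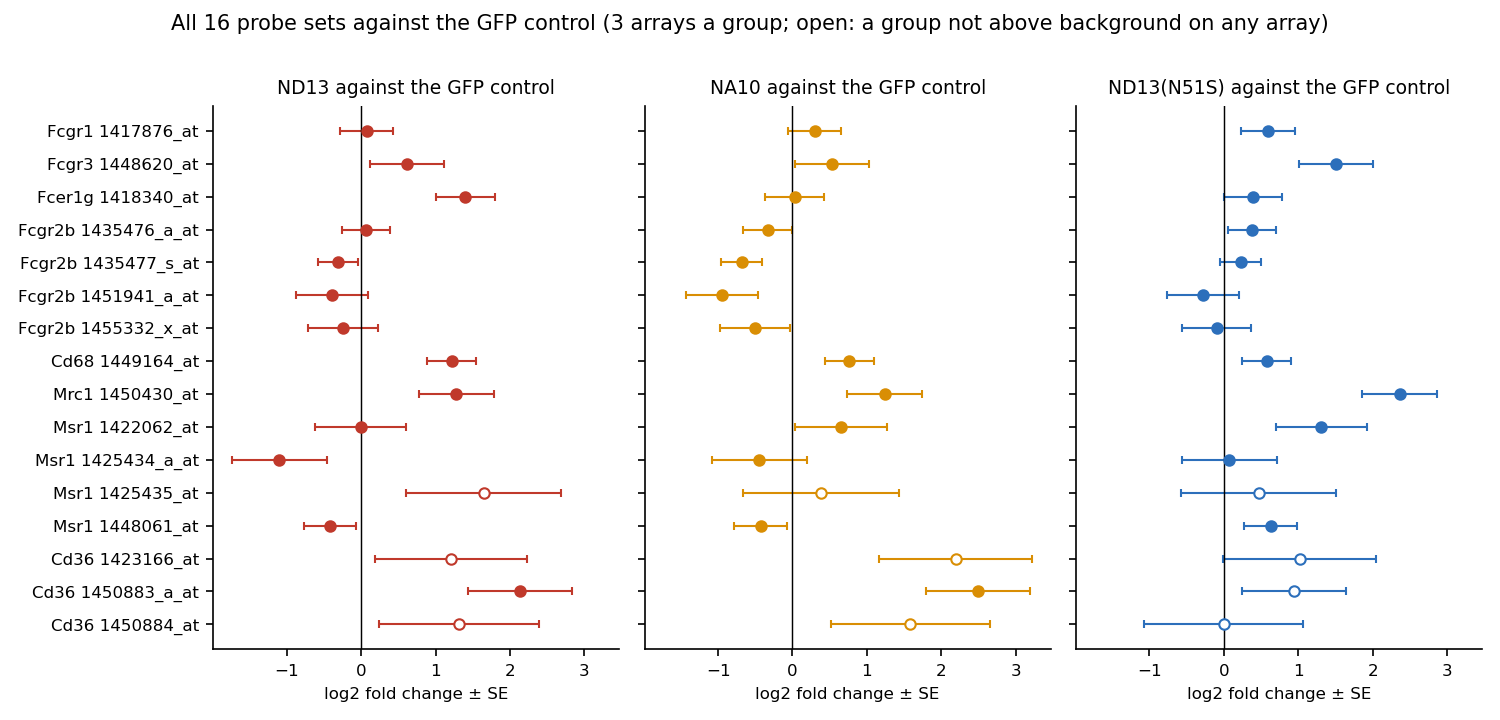
log2 fold change against the GFP control with its SE (bars) for all 16 probe sets, for ND13, NA10 and ND13(N51S), 3 arrays a group. Open marks are probe sets that were above background on no array of one of the groups compared. Fcer1g stands at 1.40 with ND13 and 0.03 with NA10, Mrc1 reaches 2.37 with ND13(N51S), and the 4 Fcgr2b probe sets lie below 0 with NA10.

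Both fusions were also set against the N51S form, which carries the same NUP98 part. That form is a mutant of ND13, so NA10 differs from it in the HOX partner as well as in the substitution. For ND13, 1 probe set was higher (Fcer1g) and 2 were lower (Mrc1 and Msr1 1448061_at) at the unadjusted threshold, against 3.2% and 3.78% of all probe sets. For NA10, 1 was higher (Cd36 1450883_a_at) and 4 were lower (Mrc1, Msr1 1448061_at, and Fcgr2b 1435476_a_at and 1435477_s_at), against 2.94% and 4.85%. ND13 and NA10 differed in 1 of 16, Fcer1g, which was higher with ND13, against 1.98% of all probe sets higher and 1.34% lower. Taken against both controls, ND13 and NA10 had 2 higher (Cd68 and Cd36 1450883_a_at) and 2 lower (Fcgr2b 1435477_s_at and Msr1 1448061_at), against 2.48% and 2.87%. The last of these contrasts gave −0.61 ± 0.19 for Fcgr2b 1435477_s_at, −0.74 ± 0.25 for Msr1 1448061_at, 0.70 ± 0.23 for Cd68 and 1.84 ± 0.49 for Cd36 1450883_a_at. Without both arrays in doubt neither Fcer1g for ND13 against ND13(N51S) nor Cd68 in this contrast passed the unadjusted threshold. Fcer1g missed it on its unadjusted p, 0.0646 in limma. Cd68 missed it on its fold difference, while its unadjusted p stayed below 0.05 in limma. With the replicate block 4 were lower for ND13 against ND13(N51S), against 4.31%, 0 were higher and 5 lower for NA10, against 3.85% and 5.56%, and 3 were higher for both fusions against both controls, against 2.89%. By overlap alone, 1 of the 16 lay wholly above ND13(N51S) and 1 wholly below it with ND13, where 4.28% and 8.04% of all probe sets did. With NA10 it was 1 above and 3 below, where 4.3% and 9.4% did. The 1 above was Cd36 1450883_a_at in either comparison, and it was above background on no ND13(N51S) array. ND13 lay wholly above NA10 for 4 of 16 and below it for 0, where 5.4% and 4% did. The 4 were Fcer1g, Fcgr2b 1435477_s_at and 1451941_a_at, and Msr1 1425435_at, which was above background on no NA10 array. Both fusions lay wholly above both controls for 1 of 16 and below for 0, where 0.371% and 0.234% did. That 1 was Cd36 1450883_a_at, above background on 5 arrays with these fusions and on 1 control array.

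The 2 arrays in doubt bear on the counts with ND13(N51S). GFP control replicate 1 had the highest signal of its group for Fcgr1, Fcgr3, Fcer1g, all 4 Fcgr2b probe sets, 2 of the Msr1 probe sets and Cd36 1450883_a_at. ND13(N51S) replicate 2 had the lowest of its group for Fcgr1, Fcer1g, Cd68, all 4 Fcgr2b probe sets and the Msr1 probe sets 1448061_at, 1425434_a_at and 1425435_at. On every Cd36 probe set it had the highest of its group instead, with no signal above background. Without both arrays, which leaves 2 in each of these groups, 10 of 16 were higher with ND13(N51S) than in the GFP control at the unadjusted threshold, against 4.36% of all probe sets. They were Fcgr1, Fcgr3, Mrc1, Cd68, all 4 Fcgr2b probe sets, and Msr1 1422062_at and 1448061_at, with log2 fold changes of 0.75 to 2.42 and adjusted p of 0.497 to 0.743 in limma. The count was 6 without GFP control replicate 1 alone, against 4.2%, and 7 without ND13(N51S) replicate 2 alone, against 4.23%. It was 1 without ND13(N51S) replicate 1, against 3.89%, and 1 without GFP control replicate 3, against 4.58%. In the same fit without both arrays, ND13 had 8 lower and 1 higher (Cd36 1450883_a_at) than ND13(N51S), against 3.61% and 2.57%. The 8 were Fcgr1, Mrc1, all 4 Fcgr2b probe sets, and Msr1 1422062_at and 1448061_at, so genes with several probe sets count repeatedly. NA10 had 6 lower and 2 higher, against 4.83% and 2.51%. The 6 were Mrc1, Msr1 1448061_at and all 4 Fcgr2b probe sets. The 2 were Cd36 1450883_a_at and 1450884_at, the latter above background on 1 array. Against the GFP control, ND13 then had 3 higher and 0 lower, against 3.64% and 1.67%, and NA10 had 2 higher and 1 lower, against 2.63% and 1.37%. With ND13(N51S) 0 were lower, against 1.44%.

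**Figure D4:**
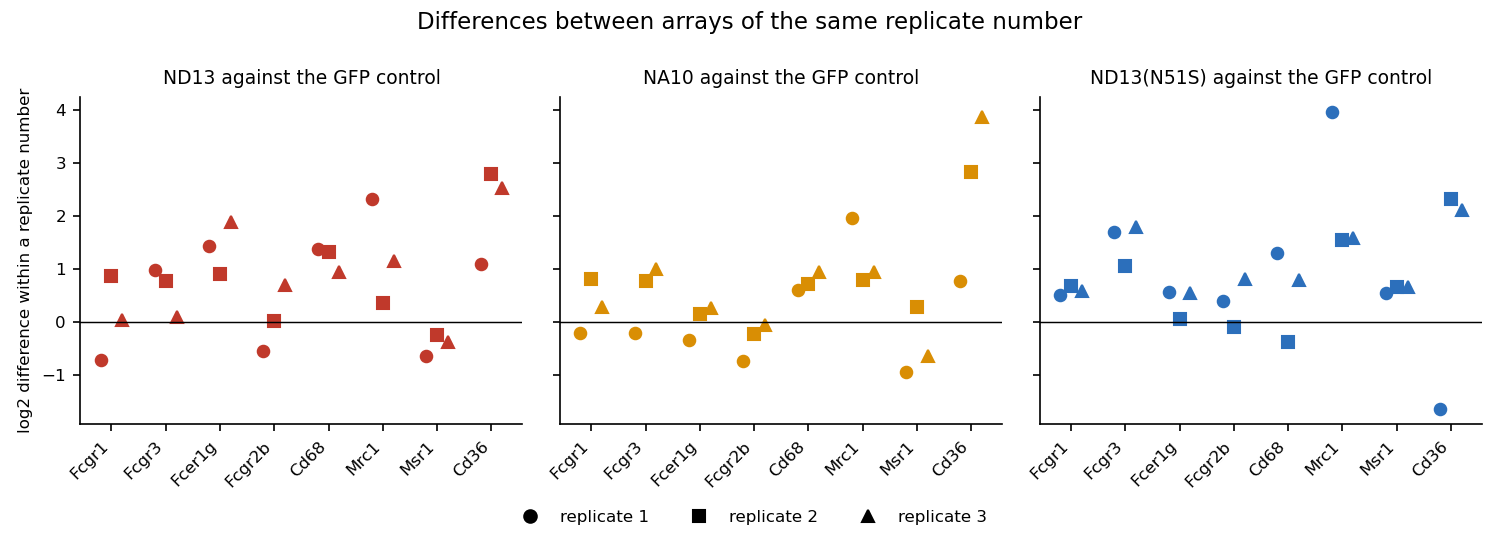
log2 difference between the array with a fusion and the GFP control array of the same replicate number (vertical axis) for 1 probe set of each of the 8 genes, in 3 panels for ND13, NA10 and ND13(N51S); marks stand for the 3 replicate numbers. Cd68 lies above 0 in all 3 pairs with ND13 and with NA10, and Mrc1 in all 9 pairs, while Cd36, near background, ranges from −1.63 to 2.32 with ND13(N51S).

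Over the 12 arrays, Fcgr2b 1435476_a_at and Msr1 1448061_at had a correlation of 0.787, Fcgr3 and Mrc1 of 0.770, and Fcer1g and Cd68 of 0.663. These describe 12 points that share 4 groups and 3 replicate numbers. Likeness was also sought among 10363 probe sets, each annotated to 1 gene outside the 8. All had a mean log2 signal above the median of all probe sets. The patterns most like each gene were found among these. For Fcer1g they were Klf3 (Pearson r = 0.889), Btg2 (0.889) and Cfp (0.883), and for Cd68 Pld3 (0.909), Lrp10 (0.904) and Spen (0.888). For Mrc1 they were Nrgn (0.913), Lgals3 (0.912) and Clec7a (0.896), the latter pair encoding lectins that macrophages carry. For Fcgr3 they were Sat1 (0.936), Stx3 (0.918) and Ctss (0.911), which encodes a lysosomal protease of antigen-presenting cells. For Fcgr2b they were Lor (0.909), Rbms2 (0.895) and Lyz2 (0.889), the lysozyme of macrophages and granulocytes. For Msr1 they were Sf3b4 (0.926), Tlcd2 (0.914) and Eif4enif1 (0.902), for Fcgr1 Ubap2 (0.900), Tex261 (0.889) and Sdhaf2 (0.857), and for Cd36 Mylk (0.919), Tgm2 (0.890) and Baz2b (0.868).

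The other genes of these receptor systems were read from lists, at the unadjusted threshold, which 3.43%, 2.51% and 4.37% of all probe sets passed as higher in the comparisons of ND13, NA10 and ND13(N51S) with the control, and 1.5%, 1.52% and 2.48% as lower. Of 10 other Fc receptor family genes, 1 was higher with ND13 at the unadjusted threshold, 0 with NA10 and 2 with ND13(N51S), and 0 were lower. Their median log2 fold changes were −0.11, 0.24 and 0.44, beside 0, −0.01 and 0.07 over all probe sets. With ND13 it was Fcgrt, the neonatal Fc receptor that carries IgG through cells, at 311.6 ± 89.3 against 147.4 ± 14.7 (log2 fold change 1.04 ± 0.27). With ND13(N51S) they were the IgE receptor chains of mast cells and basophils, Fcer1a at 817.4 ± 321 against 270.4 ± 221 and Ms4a2 at 257 ± 101 against 107.9 ± 36.9. Fcer1a and Ms4a2 join the gamma chain in that receptor, and Fcer1g itself differed there by 0.39 ± 0.39 with overlapping groups, short of the threshold. When both arrays in doubt were left out Fcer1a passed with ND13(N51S) and Ms4a2 did not.

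Of 23 other scavenger and phagocytic receptor genes, 3 were higher and 1 lower with ND13, 1 higher with NA10 and 4 higher with ND13(N51S), with medians of 0.18, 0.05 and 0.44. Itgb2, the beta chain of the complement receptors CR3 and CR4, rose with ND13, from 634.4 ± 3.89 to 1686 ± 222 (log2 fold change 1.40 ± 0.21, limma, adjusted p = 0.0202). Its values were 1249 ± 196 with NA10 and 1371 ± 297 with ND13(N51S), with adjusted p of 0.317 and 0.257 in limma. Clec7a, the beta-glucan receptor Dectin-1, averaged 292.5 ± 49.8 in the control, 538.4 ± 179 with ND13 and 925.3 ± 343 with ND13(N51S). Mertk, a receptor for dying cells, averaged 26.6 ± 20.4 in the control and 107.4 ± 60.4 with ND13(N51S), and Itgam, the alpha chain of CR3, 32.3 ± 9.52 and 70.9 ± 15.9, both near background in the control. The third gene counted as higher with ND13, Mrc2, was above background on no array, and the 1 counted as lower was Axl (−0.76 ± 0.34). With both arrays in doubt left out, 5 of the 23 were higher both with ND13 and with ND13(N51S) and 1 with NA10. The 1 lower with ND13 was Scara3, which was above background on no array.

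Of 27 genes of ITAM and ITIM signalling, 3 were higher with ND13, 0 with NA10, and 3 higher and 2 lower with ND13(N51S), with medians of 0.26, 0.08 and 0.07. Tyrobp, the DAP12 adaptor that carries an ITAM as the gamma chain does, averaged 1029 ± 357 in the control and 2161 ± 766 with ND13, with an adjusted p of 0.516 in limma, and rose with the replicate block at an adjusted p of 0.0395. With ND13(N51S) it averaged 1805 ± 591. The Src-family kinase gene Fgr averaged 101.9 ± 37.3 in the control, 157.5 ± 19.6 with ND13 and 216.9 ± 32.6 with ND13(N51S). The 2 lower genes with ND13(N51S) were Vav1 (−0.71 ± 0.29) and Ptpn6 (−0.73 ± 0.33), which encodes the phosphatase SHP-1. Of 16 myeloid transcription factor genes, 4 were higher with ND13 (Mitf, Klf4, Egr1 and Irf8), 3 with NA10 (Mitf, Klf4 and Egr1) and 3 with ND13(N51S) (Klf4, Egr1 and Egr2), with medians of 0.21, 0.18 and 0.36. Egr1, an immediate early gene, was the 1 of them called with the block, with ND13 (log2 fold change 1.98 ± 0.46, adjusted p = 0.0476, and 0.246 without the block). Leaving out both arrays in doubt, the signalling genes counted 3, 1 and 4 higher and 0, 1 and 0 lower with ND13, NA10 and ND13(N51S), and neither Vav1 nor Ptpn6 passed with ND13(N51S). The transcription factors counted 4, 2 and 3 higher and 0, 1 and 0 lower.

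Markers of cell types were counted in the same way. Of 18 monocyte and macrophage marker genes, 5 were higher and 0 lower with ND13, 3 higher and 1 lower with NA10, and 9 higher and 1 lower with ND13(N51S), with median log2 fold changes of 0.69, 0.23 and 1.05. Leaving out both arrays in doubt, it was 8 higher and 1 lower, 3 and 0, and 12 and 0. In limma without the block 0 of the 18 were called in these comparisons. Adgre1, the gene of a macrophage surface antigen, at 1072 ± 283 against 342.5 ± 82.2, and Lgals3, at 4681 ± 1962 against 1702 ± 360, rose with ND13 with the replicate block, at adjusted p of 0.0427 and 0.0480, where limma without the block gave 0.132 and 0.358. Ctss rose with ND13(N51S) with the block, at an adjusted p of 0.0370, against 0.576 without it. The summed signal of the 18 genes was 8442 to 15670 on the GFP control arrays, 16100 to 24930 with ND13, 10850 to 14620 with NA10 and 15740 to 33260 with ND13(N51S). GFP control replicate 1 gave the 15670, and the other control arrays gave 10710 and 8442, below all NA10 arrays. The sum was highest on ND13(N51S) replicate 1, the array on which Mrc1, Fcgr3, Fcgr1, Msr1 1448061_at and all 4 Fcgr2b probe sets were highest. The part of these markers in the receptor differences was not tested.

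Other cell types that carry these receptors were looked at in the same way. Of 11 dendritic cell marker genes, 3 were higher with ND13, 0 with NA10, and 4 higher and 1 lower with ND13(N51S), and their summed signal was 3369 to 4009 in the control, 7373 to 10900 with ND13, 2885 to 6029 with NA10 and 3217 to 15660 with ND13(N51S). Of 10 mast cell and basophil marker genes, 1 was higher and 1 lower with ND13, 1 higher with NA10 and 4 higher with ND13(N51S), with summed signals of 3265 to 5377, 3968 to 4836, 4209 to 6546 and 6082 to 10160 in the control, ND13, NA10 and ND13(N51S). Megakaryocyte markers, read because platelets carry Cd36, counted 1, 2 and 4 of 8 genes higher with ND13, NA10 and ND13(N51S), with summed signals of 3010 to 5020, 5608 to 7114, 6821 to 7307 and 5655 to 9080. The highest sums of both lists, 10160 and 9080, were those of ND13(N51S) replicate 2, the array with the raised 3′-to-5′ ratios, and without it the highest with ND13(N51S) were 7335 and 8891. B cell markers, read because B cells carry Fcgr2b, had 9 measured genes with summed signals of 416.8 to 659.2 over all arrays, with 0, 0 and 1 higher and 1, 1 and 1 lower in the comparisons of ND13, NA10 and ND13(N51S) with the control, and the defining factors Pax5 and Ebf1 were above background on none. Of 13 neutrophil marker genes, 0, 1 and 0 were higher and 1, 0 and 1 lower in the same order. Erythroid markers counted 1 of 8 higher in each comparison. Stem and progenitor markers counted 2, 3 and 0 of 10 higher and 1, 0 and 0 lower, and fibroblast markers, read because of the producer cells, 0, 1 and 0 of 9 higher and 1, 0 and 0 lower. Without both arrays in doubt, the counts higher with ND13(N51S) were 0 of the dendritic cell, 3 of the mast cell and basophil and 3 of the megakaryocyte marker genes. Whether any of these cells contributed to the receptor signals was not tested.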

How the data were processed

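RNA of Sca-1+Lin-GFP+ cells had been amplified and hybridised to the Affymetrix MOE430A array. The authors deposited MAS5 signal intensities on a linear scale for 22690 probe sets, each array scaled to a common trimmed mean (500.2 after trimming 2% of values at either end), together with log and experiment records that were used only to check labels. The study's GC-RMA values were not used here. The 64 control probe sets were left out, no value lay at the floor of 0.01, and log2 signals of the 22626 others were fitted with lmFit and eBayes (trend, robust) of limma 3.58.1 in R 4.3.3, all 4 groups in 1 model, with Benjamini-Hochberg adjustment over all probe sets. A call needed an adjusted p of 0.05 and a 1.5-fold difference. Genes were named from GEO's platform annotation and matched by gene number to RefSeq tables (20351 of 20380 probe sets with 1 gene); RefSeq promoters were held for 7 of the 8 genes. Members and the 13 gene lists were chosen with earlier results of these data known. All member probe sets were named, with the 3 genes most alike by Pearson r for each, and in lists those past the unadjusted threshold. For genes with several probe sets in a list, that with the highest mean was taken. A fold against the background level set the signals of the group that was above background on no array to that level. The other group kept its measured signals, and "at least" was written where all of its arrays were above background.

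Groups and replicate numbers came from the labels, and the study made 3 independent experiments. Deviations from group means correlated between same-numbered arrays of different groups by 0.106 to 0.596 (18 pairs, probe sets above the median signal) and between arrays of different numbers by −0.422 to 0.107 (36 pairs). Over all probe sets the former were 0.031 to 0.156. The rule for pairing, every same-number correlation over 0.1, was thus met for probe sets above the median signal and not over all probe sets. Deviations cancel within a group, so positive correlations of same-numbered arrays pull the others down, and the ranges are not independent. The number was used as a block in an alternative fit, and calls made only with the block rest on that choice. Fits were tested on simulated data. 24 alternatives were run, and counts of the gene lists without the 2 arrays in doubt and of members with the block were added after seeing the data. The number of arrays limits the precision, with a median of 13.3 degrees of freedom. Figures were made in Python 3.11.15 using matplotlib 3.10.9.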

Additional observations from a re-analysis of the deposited data

How the results depend on the processing

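The number of the 16 probe sets called with ND13 against the GFP control was 0, and it became 1 with the replicate block (Fcer1g); leaving out single arrays gave 0 to 1, the 1 being Cd68 without ND13(N51S) replicate 2. In the 6 other comparisons it stayed 0 under each alternative run, and no fold change of a member past the unadjusted threshold with all 12 arrays changed sign under any of them. For ND13(N51S) against the control, 2 Fcgr2b probe sets that did not pass with all arrays changed sign without both arrays in doubt, 1451941_a_at from −0.28 to 0.76 and 1455332_x_at from −0.10 to 0.84. The block changed no other call of a member. Counts at the unadjusted threshold moved more, and the cause was not tested: those higher ran from 3 to 6 with ND13, 1 to 4 with NA10 and 1 to 10 with ND13(N51S) against the GFP control, and those lower from 0 to 8 for ND13 and 2 to 6 for NA10 against ND13(N51S). For NA10 against the control, leaving out GFP control replicate 1 or NA10 replicate 2 left 1 higher. For ND13 against ND13(N51S), the number lower was 0 without ND13 replicate 2, 4 without ND13 replicate 1 and 7 without ND13(N51S) replicate 2. Over all probe sets, median centring moved the share of higher among unadjusted calls from 69.6% to 56.6% with ND13 and from 63.8% to 40.2% with ND13(N51S) against the GFP control. Called probe sets of the whole array numbered 20 with ND13 and ran from 0 to 67. The signals of Cd36 and of 2 Msr1 probe sets lay near background.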
